A study of Mus musculus with 18 samples.

Results

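The Kruppel-like factors are transcription factors that bind GC-rich DNA, such as the GC box and the CACCC box, through zinc fingers at their carboxyl end. Their amino ends differ: Klf2, Klf4, Klf6 and Klf7 are known mainly as activators, Klf3 recruits the corepressor CtBP, and Klf9, Klf10 and Klf13 recruit the corepressor Sin3a. Several are known as early response genes of flow, wounding or growth factors, and others as targets of glucocorticoids. The 9 described here, Klf2, Klf3, Klf4, Klf6, Klf7, Klf9, Klf10, Klf13 and Klf15, were taken by name out of the 29214 genes in the bulk table, and all 9 were present in every table of counts. They were followed through bulk, single-cell, single-nucleus and spatial RNA sequencing of the urinary bladder of C57BL/6 mice.

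Of 18 samples, 6 were bulk libraries of 12-month females, 3 from intact bladder tissue (intact) and 3 from dissociated bladder (dissociated), each labelled with 3 females. The 5 whole-bladder cell libraries came from pooled mice: libraries 1 (22 months) and 2 (3 months) from 3 males each, and libraries 3 and 4 (12 months) and 5 (24 months) from 2 females and 2 males each. There were 2 further cell libraries of 14 months, the detrusor layer alone (3 females) and a detrusor-enriched whole bladder (2 females and 2 males). The rest were 1 library of nuclei (12 months, 2 females and 2 males) and 4 frozen sections on Visium capture slides, sections 1 and 2 of 22 months and sections 3 and 4 of 14 months, each labelled with 4 males. The detrusor is the muscular wall of the bladder and the urothelium is its inner lining. No mouse carried a transgene or received a treatment, as far as the labels say.

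Bulk libraries held 23083752 to 68760791 reads. After filtering, whole-bladder libraries 3 to 5 had medians of 10361.5 to 15790 UMIs per cell (unique molecular identifiers, each standing for 1 captured RNA molecule), the detrusor libraries 8173 and 8222, and nuclei 1107. Whole-bladder libraries 1 and 2 stood apart: they had medians of 2462.5 and 1806 UMIs, barcodes of 14 bases, 0 mitochondrial UMIs and 6.57% to 7.59% ribosomal protein UMIs, against 30.6% to 31.5% in libraries 3 to 5. They were also the 2 all-male pools, so sex and these differences cannot be told apart. Cell classes were named by marker lists and carry the ending "like" after the name of that class, and 0% to 6.53% of the cells of a library stayed unnamed. No smooth muscle-like class reached 50 cells in the 5 whole-bladder libraries, although smooth muscle is a main component of the bladder wall. The nuclei library held 1369 smooth muscle-like nuclei and the detrusor library 305 smooth muscle-like cells among 5412. Libraries 1 and 2 shared 64 barcodes (1.00% of the smaller library), the most of any pair.

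The promoters of 4 members are shown because these genes had the largest rises in dissociated bladder. Promoters of 8 of the 9 members were matched in the RefSeq promoter table used here (GRCm38.p6). The 250 bases before the annotated start are printed from 5′ to 3′ on the gene's own strand, with each GC box (GGGCGG) and each CACCC box (CACCC), on either strand, in capitals. The windows are chr8:72318812-72319061 (plus strand) for Klf2, chr4:55532476-55532725 (minus strand) for Klf4, chr13:5861239-5861488 (plus strand) for Klf6 and chr19:23140976-23141225 (plus strand) for Klf9.
Klf2: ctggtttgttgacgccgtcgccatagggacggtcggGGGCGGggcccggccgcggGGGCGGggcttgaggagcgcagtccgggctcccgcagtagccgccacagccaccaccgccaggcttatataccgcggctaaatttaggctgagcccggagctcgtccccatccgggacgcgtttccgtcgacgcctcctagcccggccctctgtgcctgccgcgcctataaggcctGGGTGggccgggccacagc
Klf4: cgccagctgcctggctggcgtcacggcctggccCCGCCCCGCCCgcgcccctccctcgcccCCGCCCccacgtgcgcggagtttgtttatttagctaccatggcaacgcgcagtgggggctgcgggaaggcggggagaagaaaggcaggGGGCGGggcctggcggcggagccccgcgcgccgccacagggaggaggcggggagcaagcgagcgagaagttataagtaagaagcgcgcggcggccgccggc
Klf6: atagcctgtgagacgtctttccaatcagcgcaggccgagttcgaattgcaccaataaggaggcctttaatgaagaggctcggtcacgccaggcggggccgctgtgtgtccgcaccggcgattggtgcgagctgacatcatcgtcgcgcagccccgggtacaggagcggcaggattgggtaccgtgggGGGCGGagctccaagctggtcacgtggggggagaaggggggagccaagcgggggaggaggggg
Klf9: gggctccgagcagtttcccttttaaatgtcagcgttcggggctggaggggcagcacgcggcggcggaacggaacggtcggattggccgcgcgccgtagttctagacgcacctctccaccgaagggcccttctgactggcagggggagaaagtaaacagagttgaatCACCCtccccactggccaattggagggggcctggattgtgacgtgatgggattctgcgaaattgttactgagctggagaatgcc

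The Klf4 window holds 4 GC boxes, the Klf2 window 2, the Klf6 window 1 and the Klf9 window none. The GC content of the 4 windows is 71.2% (Klf2), 74.0% (Klf4), 64.8% (Klf6) and 59.6% (Klf9), against a median of 52.4% over 32851 mouse promoters of the same length. A GC box lay in 7 of the 8 members' windows and in 32.7% of all windows, and a CACCC box in 6 of 8 and in 52.0%. Either strand was read for each motif, and motifs could overlap one another. The sequence TGACG, the core of a cyclic AMP response element, lay in 5 of 8 windows (17.8% of all), among them those of Klf2, Klf4 and Klf9. The E-box CACGTG lay in 3 of 8 (6.02% of all), those of Klf4, Klf6 and Klf15. The CCAAT box (CCAAT) lay in 4 of 8 (33.8% of all) and was present 4 times in the Klf6 window. The sequence TGANTCA, with any base at N, is wider than the AP-1 site of Fos and Jun proteins, which has C or G there. It lay in the Klf9 window alone (6.75% of all), as TGAATCA, so that match is not the AP-1 site itself. The CArG box, bound by serum response factor, lay in none of the 8 (1.47% of all). These are matches of letters and not measured binding sites.

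In bulk RNA, 8 of the 9 members were higher in dissociated than in intact bladder and 1, Klf15, was lower. The 3 intact and the 3 dissociated libraries did not overlap for any of the 9. Such changes were common: of 16538 genes tested with the quasi-likelihood test of edgeR, 27.9% were higher and 31.3% lower in dissociated bladder at an adjusted p under 0.05, and 67.2% did not overlap. The sizes ranged from 4.14 for Klf4 to -1.07 for Klf15 on the log2 scale, with a median of -0.03 over all genes tested (-0.14 when scaled by library size alone). Levels below are counts per 1000000 scaled by TMM, a correction of library size for composition (TMM CPM). The labels do not say whether the 3 libraries of a group came from separate mice, so p-values measure the spread between these libraries. Less RNA per cell and fewer cells of a type cannot be told apart in bulk RNA.

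Klf4, known for its part in epithelial barriers and in endothelium, had 63.6, 59.3 and 86.7 TMM CPM in the intact libraries and 1245, 1137 and 1301 in the dissociated ones. The lowest dissociated library lay far above the highest intact one. The log2 fold change was 4.14 ± 0.17 (standard error, SE; adjusted p 2.14e-06, edgeR), which ranked 117 of 16538 genes from the highest. Klf6, a factor induced early after injury, had 85.1, 99.8 and 89.3 TMM CPM in intact and 417, 553 and 605 in dissociated bladder. Its 3 intact libraries lay close together and its log2 fold change was 2.52 ± 0.15 (adjusted p 1.09e-05, edgeR). Klf2, a factor that laminar flow induces in endothelium, had 21.2, 18.7 and 26.9 TMM CPM in intact and 119, 111 and 92.9 in dissociated bladder. All 3 dissociated libraries were high, with a log2 fold change of 2.28 ± 0.16 (adjusted p 2.06e-05, edgeR).

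Klf9, a target of glucocorticoid and thyroid hormone receptors, had 80.1, 74.3 and 82.97 TMM CPM in intact and 213, 179 and 218 in dissociated bladder. Its rise was 1.36 ± 0.10 (adjusted p 2.77e-05, edgeR). Klf13, known for control of the chemokine gene Ccl5 in T cells, had 57.6, 47.7 and 57.8 TMM CPM in intact and 99.3, 109 and 117 in dissociated bladder. The highest intact library lay well below the lowest dissociated one, with a log2 fold change of 1.00 ± 0.10 (adjusted p 0.000153, edgeR). Klf10, a gene that TGF-beta induces early, had 58.5, 50.2 and 71.3 TMM CPM in intact and 90.8, 87.4 and 95.7 in dissociated bladder, a rise of 0.61 ± 0.13 (adjusted p 0.00427, edgeR). Klf7, known from axon growth, had 26.2, 35.0 and 41.9 TMM CPM in intact and 58.1, 60.4 and 57.8 in dissociated bladder. Here the intact libraries were the more spread, and the rise was 0.77 ± 0.15 (adjusted p 0.00358, edgeR).

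Klf3, the CtBP-binding member, had the smallest rise. Its levels were 134, 118 and 138 TMM CPM in intact and 167, 164 and 177 in dissociated bladder, with a log2 fold change of 0.38 ± 0.085 (adjusted p 0.00567, edgeR). Klf15, a regulator of metabolism in muscle and adipose tissue, fell: 13.8, 15.6 and 10.3 TMM CPM in intact bladder stood against 8.4, 6.3 and 4.2 in dissociated bladder, a log2 fold change of -1.07 ± 0.26 (adjusted p 0.00911, edgeR). When a log2 fold change beyond 1 was itself the hypothesis tested, 4 members remained called, all higher (Klf2, Klf4, Klf6 and Klf9), where 5.87% of all genes were higher and 4.95% lower, and Klf15 did not pass.

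**Figure D1:**
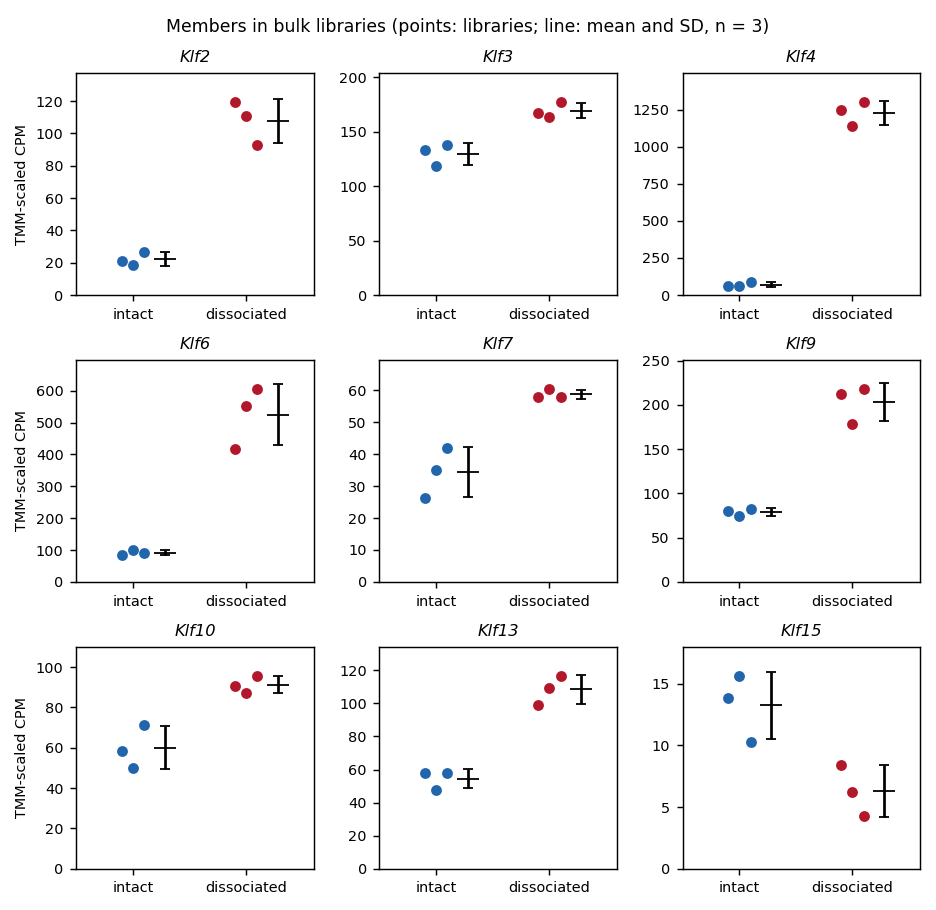
TMM CPM (vertical axes, from 0) of the 9 Kruppel-like factors in the bulk libraries, with 1 panel per gene and 1 point per library; lines give the mean and SD of 3 libraries. In 8 panels every dissociated library lies above every intact one, widest for Klf4 (59.3 to 86.7 against 1137 to 1301), and in the Klf15 panel every one lies below.

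Marker genes of cell types and stress genes moved with the same contrast. All 10 smooth muscle genes and all 5 adipocyte genes fell in dissociated bladder (median log2 fold changes -3.84 and -4.95), and 11 of 12 fibroblast genes rose (median 1.30). So did 11 of 12 macrophage genes (median 0.55), all 5 lymphatic endothelial genes tested (0.97) and all 5 erythroid genes (2.09), while 6 of 12 urothelial genes rose and 4 fell. The immediate-early and stress genes, among them Fos, Fosb and Atf3, rose for 29 of 30 (median 4.63), with Fosb at 9.47, Atf3 at 7.61 and Fos at 7.02. Their part in the changes of the Kruppel-like factors was not tested.

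Of the 17 other Kruppel-like and Sp factors, 11 passed the filter on low counts, 6 rose and 1 fell. The largest rises were those of Klf12 (2.44 ± 0.39), Klf16 (1.80 ± 0.17) and Sp4 (1.01 ± 0.21), and Sp6 fell by 1.17 on the log2 scale. Of 14 partners and regulators of the family, 4 rose and 1 fell, all by under 0.5. They included the MEF2 factors Mef2d (0.43 ± 0.077) and Mef2a (0.35 ± 0.084), which drive Klf2 and Klf4 in endothelium, and the kinase Map3k3 (0.38 ± 0.074) upstream of them. The corepressor Ctbp2, partner of Klf3, fell by 0.39. All 5 genes listed as endothelial targets of Klf2 and Klf4 rose (median 1.51). The list does not separate induced from repressed targets, so a rise has no set reading. The largest rises were those of Nos3, the endothelial nitric oxide synthase (2.18 ± 0.23), Edn1, the vasoconstrictor endothelin-1 (1.52 ± 0.27), and the sphingosine phosphate receptor S1pr1 (1.51 ± 0.19). In the same libraries, 7 of 10 blood endothelial markers rose, with a median of 0.67. Among 7 glucocorticoid-responsive genes tested, 4 rose, with Sgk1 at 3.21 ± 0.15, Per1 at 2.49 ± 0.22 and Pdk4 at 1.06 ± 0.17. The other 3 were not called, among them Fkbp5 (0.04 ± 0.098, adjusted p 0.767, edgeR). The part of glucocorticoids in the members' changes was not tested.

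Across cell classes, blood endothelial-like cells had the highest mean level of Klf2, Klf7, Klf10 and Klf13, fibroblast-like cells that of Klf4, and pericyte-like cells that of Klf9. The fibroblast mean of Klf4 covers 5 libraries. In the 2 libraries with 50 or more cells of both classes, blood endothelial-like cells had more Klf4 than fibroblast-like cells. For Klf3 and Klf15 the highest mean was that of mesothelial-like cells, which rests on library 1 alone, and Klf15 was highest in fibroblast-like cells within each of the 5 whole-bladder libraries. For Klf6 the macrophage-like and endothelial-like classes were level at the top. Class levels are counts per 1000000 (CPM) of UMIs summed over the cells of a class in a library, given as mean ± SD over the whole-bladder libraries with 50 or more such cells, and they are a description with no test. Neighbours in an order are said to be separate where their means differ by more than the larger of their SDs. With 2 libraries for blood endothelial-like and T or NK-like cells and 1 for pericyte-like and mesothelial-like cells, those positions are weakly fixed.

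Klf2 was highest in blood endothelial-like cells, at 7222 and 11063 CPM in libraries 1 and 2. Pericyte-like cells followed at 6453 CPM (library 1), then macrophage- or monocyte-like cells at 2153 ± 1432 (n = 4), fibroblast-like cells at 1147 ± 203 (n = 5), dendritic-like cells at 1042 ± 642 (n = 4), T or NK-like cells at 1036 ± 69.7 (n = 2), mesothelial-like cells at 813 (n = 1) and urothelial-like cells at 180 ± 197 (n = 5). With classes of 20 or more cells, which adds libraries 3 and 5 (3187 and 3291 CPM), the endothelial mean was 6191 CPM, below the pericyte value. Endothelial-like and pericyte-like cells were not separate, nor were the run from macrophage-like to T or NK-like cells. Urothelial-like cells were lowest in all 5 libraries, but their level depended on the library: 459 and 318 CPM in libraries 1 and 2 against 49.7, 28.01 and 44.1 in libraries 3 to 5. Fibroblast-like cells exceeded urothelial-like cells in 5 of 5 libraries, by 2.33 to 32.8 times.

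Klf7 shared the endothelial lead, at 273 ± 38.8 CPM (n = 2) against 180 in pericyte-like cells, 101 ± 31.9 in fibroblast-like cells, 48.6 in mesothelial-like cells and 14.8 to 29.97 in the immune-like and urothelial-like classes. Each step from the endothelial to the mesothelial class was a separate one by its means. In library 1, which alone held pericyte-like cells, endothelial-like and pericyte-like cells had 246 and 180 CPM (70 and 24 UMIs). The mesothelial value rests on 7 UMIs. Klf13 ran from 133 ± 18.4 in endothelial-like cells over 112 in pericyte-like, 105 ± 68.5 in macrophage-like, 96.6 ± 23.5 in T or NK-like, 84.6 ± 45.6 in fibroblast-like, 69.4 in mesothelial-like and 69.3 ± 11.7 in dendritic-like cells to 37.7 ± 11.4 in urothelial-like cells. With classes of 20 or more cells the endothelial mean was 204 CPM, since libraries 3 and 5 then added 258 and 292. Among the classes of 50 or more cells, the step down to urothelial-like cells was beyond the spread. The first step, from endothelial-like to pericyte-like cells, passed the same rule by its means, but in library 1, which held both, the values were 119 and 112 CPM (34 and 15 UMIs). No step between these passed, and urothelial-like cells were lowest in 5 of 5 libraries. Klf10 was the one member with urothelial-like above fibroblast-like cells in 5 of 5 libraries, at 74.4 ± 19.4 against 51.8 ± 31.7 CPM, though in library 2 the values were nearly equal (109 and 106). Its endothelial level of 144 ± 70.1 was higher still but not separate from the urothelial one, and its other classes lay between 31.8 and 53.7 CPM.

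Klf4 was highest in fibroblast-like cells by its mean, 1252 ± 977 CPM, with a wide spread: 392 and 332 CPM in libraries 1 and 2 against 1236, 2707 and 1592 in libraries 3 to 5. In libraries 1 and 2 it was highest in blood endothelial-like cells, at 689 and 679 CPM. The rest followed at 382 in pericyte-like cells, 313 ± 146 in macrophage-like, 270 ± 25.2 in dendritic-like, 201 ± 38.3 in urothelial-like, 118 in mesothelial-like and 89.5 ± 35.0 in T or NK-like cells. Fibroblast-like cells exceeded urothelial-like cells in 5 of 5 libraries, by 1.78 to 10.7 times.

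Klf9 was highest in stromal classes. It stood at 599.6 CPM in pericyte-like cells, 472 ± 125 in fibroblast-like cells, 319 ± 98.0 in blood endothelial-like cells and 201 in mesothelial-like cells, each separate from the next by its mean. Library 1 alone held mesothelial-like cells, and there endothelial-like cells had 249.5 CPM. The last step therefore leans on library 2, where endothelial-like cells had 388 CPM. T or NK-like cells had 112 ± 105, macrophage-like cells 39.5 ± 29.9, urothelial-like cells 26.3 ± 6.67 and dendritic-like cells 13.7 ± 10.7 CPM. The fibroblast level was 9.75 to 22.3 times the urothelial level in 5 of 5 libraries. Fibroblast RNA was also counted in urothelial-like cells: the 12 fibroblast genes summed to 3118 CPM there against 63620 in fibroblast-like cells of library 1, where the ratio was lowest, and to 106 to 966 against 31307 to 46466 in libraries 2 to 5. Its part in the low urothelial levels of Klf9 and of the other members was not tested. Klf15 rested on far fewer UMIs, at 48.6 CPM in mesothelial-like cells (7 UMIs), 35.7 ± 36.8 in fibroblast-like and 20.9 ± 4.73 in endothelial-like cells, and at most 3.11 in the immune-like and urothelial-like classes. The 14.99 CPM of pericyte-like cells came from 2 UMIs and lay under the 22.5 CPM that 3 counts give in that class. Within each of the 5 libraries fibroblast-like cells had the highest Klf15. There it split by library, with 53.6 and 92.4 CPM in libraries 1 and 2 against 11.2, 7.77 and 13.4 in libraries 3 to 5. T or NK-like cells held 0 Klf15 UMIs, which allows up to 7.77 CPM, from 3 counts in 386310 (counting error only).

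Klf6 was highest in the macrophage-like and endothelial-like classes, at 748 ± 295 and 748 ± 212 CPM, with T or NK-like cells at 602 ± 16.0. Dendritic-like (423 ± 170), urothelial-like (394 ± 84.3) and pericyte-like cells (382) formed a middle group that was not separate. In libraries 3 and 4, with 3 classes each, urothelial-like cells had the highest Klf6 (332 and 457 CPM). Fibroblast-like cells were low at 226 ± 80.4 and mesothelial-like cells lowest at 83.3 CPM. Klf3 had the smallest ratio between its highest and lowest class means, from 146 CPM in mesothelial-like cells over 120 ± 23.3 in fibroblast-like, 117 ± 6.92 in urothelial-like, 107 ± 37.0 in T or NK-like, 105 in pericyte-like, 100 ± 57.3 in endothelial-like and 82.1 ± 14.9 in macrophage-like cells to 54.5 ± 16.1 in dendritic-like cells. Between the fibroblast and the macrophage class no step exceeded the spread. Within a library the highest class was 1.18 to 4.22 times the lowest.

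**Figure D2:**
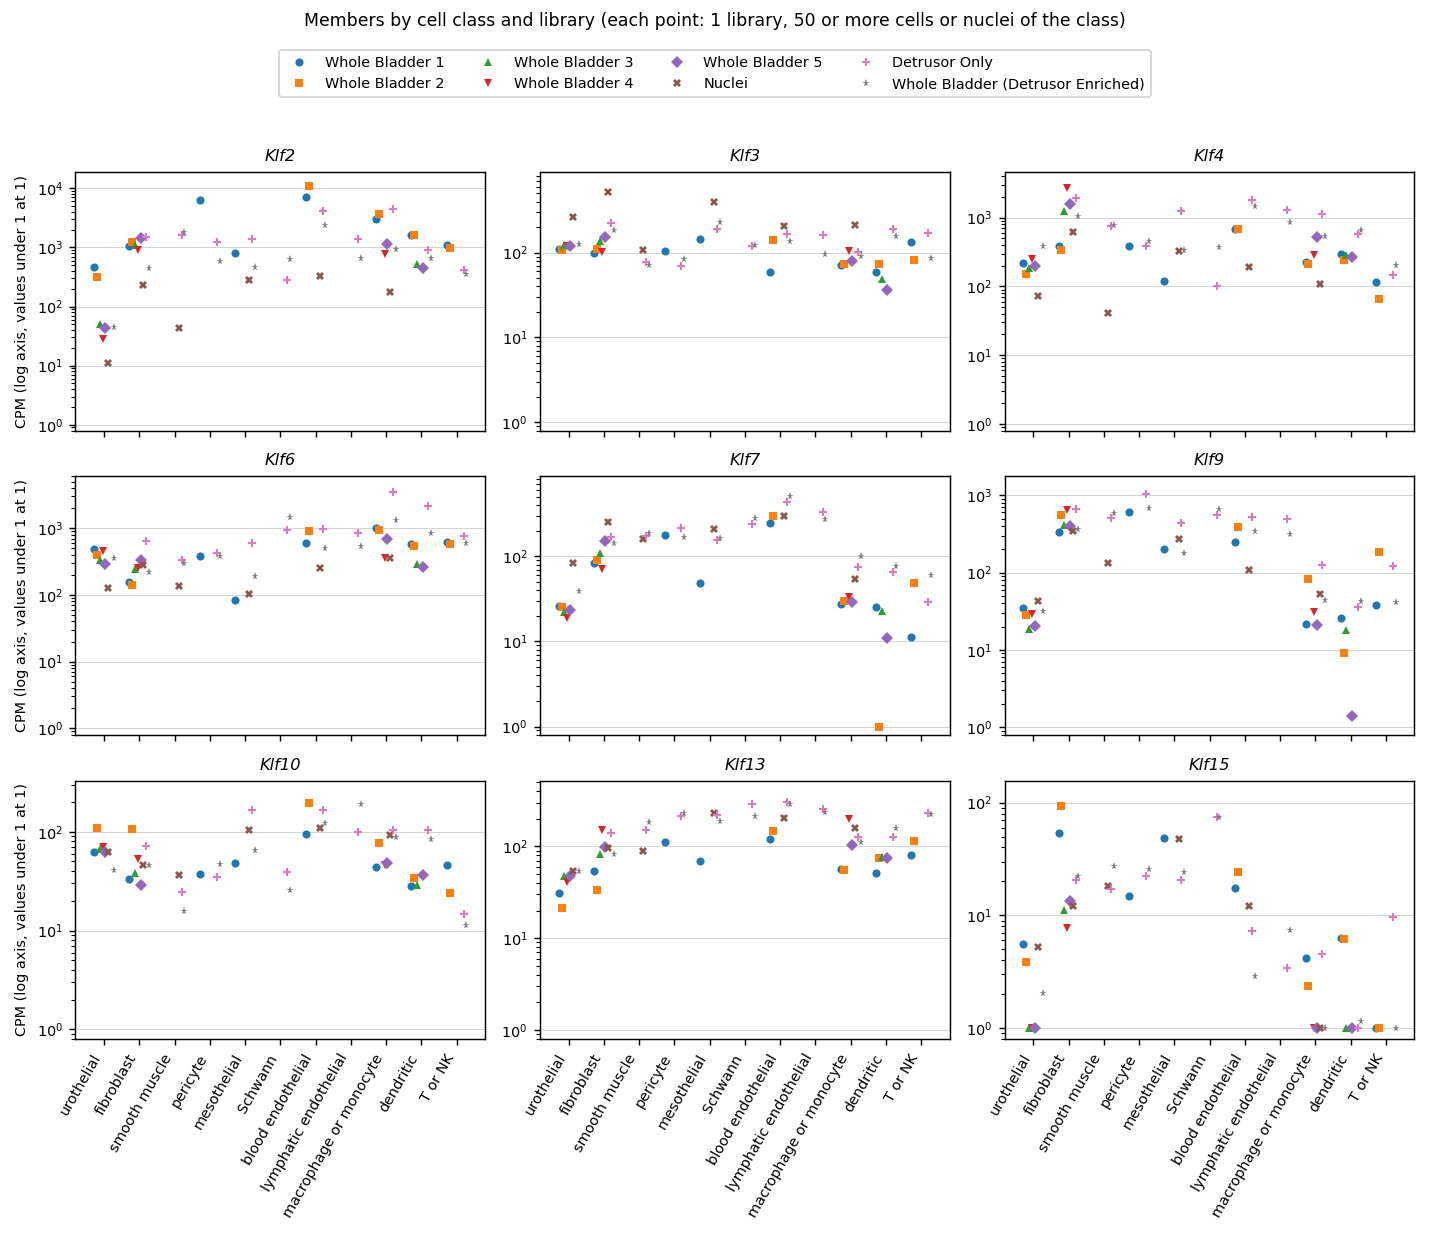
CPM (log axes, values under 1 drawn at 1) of the 9 factors by cell class, with 1 point per library that held 50 or more cells or nuclei of the class and the library given by colour and marker. Klf2 reaches 11063 in blood endothelial-like cells and falls to 28.01 in urothelial-like cells of the whole-bladder libraries and to 10.9 in urothelial-like nuclei, Klf9 and Klf15 are low in urothelial-like cells, and Klf3 spans 36.1 to 152.5 over the whole-bladder libraries.

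The 2 detrusor cell libraries, which have no replicate, held 50 or more cells of classes that stayed under that number in each whole-bladder library, where there were at most 19 smooth muscle-like, 40 Schwann-like and 44 lymphatic endothelial-like cells. In the smooth muscle-like cells of the detrusor-only and the detrusor-enriched library, Klf9 stood at 505 and 584 CPM, Klf2 at 1628 and 1789, and Klf4 at 743 and 775. Pericyte-like cells had the highest Klf9 of any class, at 1037 and 689 CPM. Schwann-like cells, the glia of nerves, had 928 and 1473 CPM of Klf6, and the highest Klf15 of any class in both libraries, at 74.2 and 75.3 CPM. Lymphatic endothelial-like cells had 99.7 and 190 CPM of Klf10 and 331 and 275 of Klf7. Blood endothelial-like cells again led Klf7 and Klf13 in both, with 433 and 513 CPM of Klf7 and 307 and 293 of Klf13. They led Klf2 in the detrusor-enriched library (2358 CPM) but not in the detrusor-only one (4175 against 4402 in macrophage-like cells). They led Klf10 in neither. It was highest in mesothelial-like cells of the detrusor-only library (165.3 against 165.0 CPM) and in lymphatic endothelial-like cells of the enriched one (190 against 121). Macrophage-like cells showed how far libraries can differ: Klf2 stood at 4402 and 948 CPM and Klf6 at 3547 and 1343.

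Within the urothelium, several members were lower in the cluster richest in umbrella cell genes than in the cluster richest in basal cell genes. Umbrella cells are the large cells that face the urine and make uroplakins, and basal cells carry keratin 5 and rest on the basement membrane. Clusters were made without any Kruppel-like or Sp gene, and in each library the cluster with the highest summed umbrella list was set beside that with the highest summed basal list. In library 2 both were the same cluster, which left 4 libraries, and the clusters between these extremes are not part of the counts. Klf2, Klf3, Klf4, Klf6, Klf10 and Klf13 were higher in the basal-rich cluster in 4 of 4 libraries, with no test, although Klf3 was tied in library 4 (99.4 and 99.6 CPM). The share of all genes with that direction was not counted, so a general shift between these clusters cannot be told apart.

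Klf4 stood at 56.8, 21.3, 119 and 37.4 CPM in the umbrella-rich clusters of libraries 1, 3, 4 and 5 and at 325, 476, 381 and 439 in the basal-rich ones. Klf13 stood at 20.6, 8.19, 14.97 and 12.2 against 41.5, 99.4, 68.1 and 94.3 CPM. Klf6 rose from 158, 86.5 and 115 in libraries 1, 3 and 5 to 573, 455 and 435 CPM, but in library 4 the clusters were nearly equal at 408 and 435. Klf10 was 37.8, 31.2, 56.7 and 32.6 against 82.4, 77.7, 75.7 and 65.3 CPM. Klf3 ranged from 51.6 to 99.4 in the umbrella-rich and from 99.6 to 144 in the basal-rich clusters. Members also differed between clusters whose list sums were close. In library 2, Klf4 stood at 63.7 and 370 CPM and Klf6 at 167 and 999 in the 2 urothelial-like clusters, with umbrella sums of 7882 and 7213 CPM. In library 1, the highest Klf6 (592 CPM) was in another cluster, with an umbrella sum of 8627 CPM. The choice of the single most basal cluster also set the size of the contrast: in libraries 3 and 5 that cluster was led by Hbegf, a growth factor gene, and the clusters next richest in basal genes there had 201 and 222 CPM of Klf4 and 58.5 and 43.1 of Klf13. Klf7 went the other way in 3 of 4 libraries by small amounts (21.4 to 38.7 against 13.8 to 27.5 CPM). Klf15 was also higher in the umbrella-rich cluster in 3 libraries, at 0.51 to 6.88 CPM against 0 to 4.02. All urothelial-like cells of the 5 libraries held 68 Klf15 UMIs, too few to give a direction between clusters. Klf9 was higher in the basal-rich cluster in 3 and lower in 1 (12.8 to 28.2 against 23.0 to 40.9 CPM). The umbrella-rich cluster of the nuclei library held 116 nuclei and 392146 UMIs of all genes, too few to order Klf4 (35.7 and 71.2 CPM) or Klf13 (28.1 and 53.8) against the basal-rich cluster.

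**Figure D3:**
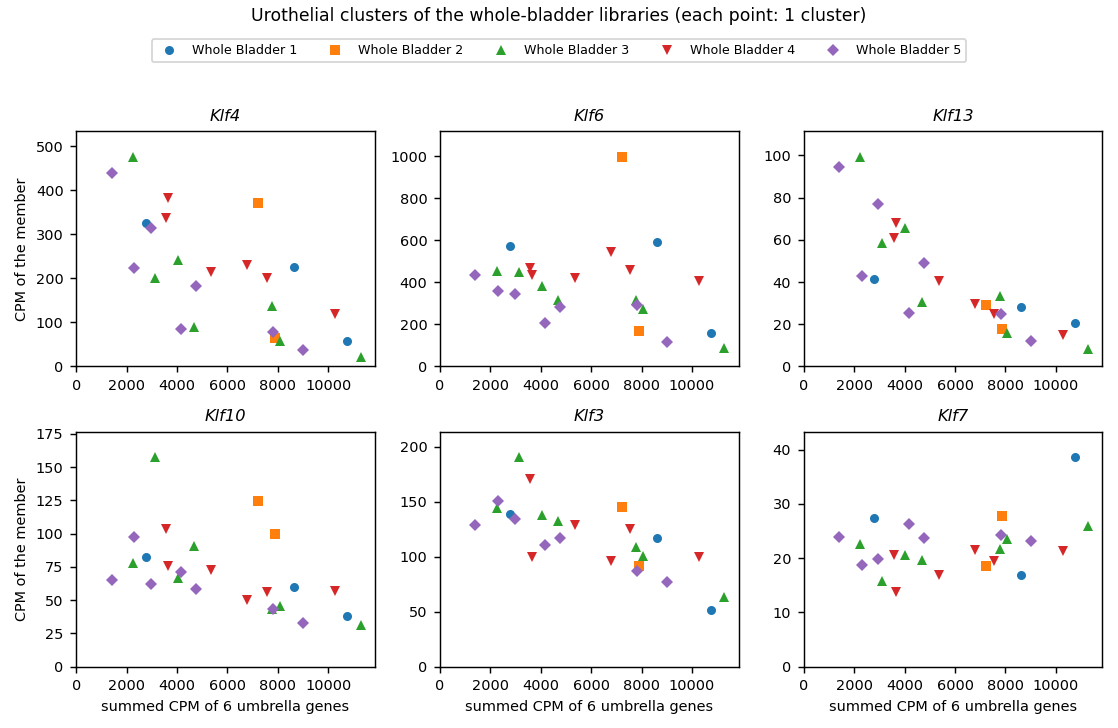
CPM of 6 factors (vertical axes, from 0) in each urothelial-like cluster of the 5 whole-bladder libraries, against the summed CPM of the 6 umbrella genes in that cluster (horizontal axes). Klf4 and Klf13 are low in the clusters with the highest umbrella sums, such as 21.3 and 8.19 in library 3, while Klf7 spans 13.8 to 38.7 over all clusters drawn.

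Nuclei were set against whole-bladder cells within 3 classes to compare RNA from nuclei with RNA from whole dissociated cells. With 1 nuclei library the spread among nuclei was not measured: it is assumed to be that of the cell libraries, so every adjusted p of these comparisons rests on the cell libraries' spread, and that assumption was not tested. In the urothelial-like class 3 members were lower in nuclei and none higher, where 19.3% of 13271 genes were lower and 15.9% higher. Klf6 had 65.4 TMM CPM in nuclei against 341 to 638 (median 446) in the 5 cell libraries, a log2 fold change of -2.79 ± 0.43 (adjusted p 0.00412, edgeR). Klf4 had 36.3 in nuclei against 128 to 353 (median 253), a log2 fold change of -2.72 ± 0.59 (adjusted p 0.0133, edgeR). In both, the nuclei lay below every cell library, but 73% of all genes, and 6 of the 9 members, did not overlap between this 1 nuclei library and the cells. Klf10 had 31.9 against 57.2 to 98.4 (median 91.3), a log2 fold change of -1.41 ± 0.35 (adjusted p 0.0214, edgeR), but with library size alone it was -0.23 ± 0.40 (adjusted p 0.670) and was no longer called.

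Klf2 in urothelial-like cells had 5.5 TMM CPM in nuclei against 39.0 to 418 in cells and did not pass (log2 fold change -4.95 ± 1.91, adjusted p 0.0910, edgeR). Its 5 cell libraries were widely spread, and with the 3 mixed-sex libraries alone, where 29.6% of genes were lower, it was called lower in nuclei (-3.34 ± 0.43, adjusted p 0.000726, range over alternatives 0.000138 to 0.165). Klf3 had 135 TMM CPM in nuclei against 92.05 to 169 in cells, a log2 fold change of -0.03 ± 0.40, which turned to 1.20 ± 0.24 (adjusted p 0.00712, edgeR) when scaled by library size alone, a scaling that called 37.4% of genes higher in nuclei. Klf7 had 41.8 against 21.8 to 31.4, a log2 fold change of 0.64 ± 0.26 (adjusted p 0.100, edgeR). Klf9 (-0.44), Klf13 (-0.78) and Klf15 (0.60) did not pass either.

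In fibroblast-like cells 1 member was lower and 1 higher in nuclei, where 16.2% of 12407 genes were lower and 8.63% higher. Klf2 had 139 TMM CPM in nuclei against 1074 to 1716 (median 1166) in cells, a log2 fold change of -3.21 ± 0.51 (adjusted p 0.00822, edgeR), and stayed called under every alternative run. Klf3 had 312 against 99.4 to 181 (median 127), a log2 fold change of 1.20 ± 0.37 (adjusted p 0.0475, edgeR; 0.00215 to 0.0754 over the alternatives). Leaving out library 1, 2, 3 or 4 ended that call. Each library was clustered on its own. Of the 400 fibroblast-like nuclei, 380 formed 1 cluster led by Pi16, Pdgfra and Col14a1. Cell libraries held clusters led by genes such as Clec3b and Pi16, and most also held clusters led by genes such as Car3, Cxcl14 and Col1a1. Klf3 was lower in those (49.4 CPM against 163 in the cluster led by Clec3b and Pi16 in library 1, and 94.9 against 170 in library 3), and the part of this in the difference was not tested. Of all genes 71.1% did not overlap between the nuclei and the cells, as did 5 of the 9 members. Klf9, at 205 in nuclei and 340 to 796 in cells, had a log2 fold change of -1.37 ± 0.51 and an adjusted p of 0.0860 (edgeR). Klf4, at 370 in nuclei, lay within the cell range of 316 to 3358.

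In macrophage- or monocyte-like cells none of the 8 members tested passed, where 2.83% of 7871 genes were higher and 6.48% lower in nuclei. DESeq2 called 3 members lower (8.25% of all genes), and the same number had an unadjusted p under 0.05 in edgeR, as did 31.6% of all genes. Klf2 had 91.3 TMM CPM in nuclei against 959 to 4487 (log2 fold change -4.83 ± 1.33, adjusted p 0.0625, edgeR), Klf4 had 56.2 against 257 to 635 (-2.75 ± 0.78, adjusted p 0.0653) and Klf6 190 against 451 to 1208 (-2.25 ± 0.82, adjusted p 0.112). These nuclear values lay below every cell library, as did those of Klf7 and Klf10, and 73.3% of all genes did not overlap. Klf15 was removed by the filter on low counts, and this nuclei class held 71 nuclei.

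Scaling mattered for these comparisons. With library size alone, an alternative chosen after the data were seen, the median log2 fold change over all genes moved from -0.03 to 1.13 in urothelial-like, from -0.32 to 0.57 in fibroblast-like and from -0.28 to 0.99 in macrophage-like cells. The share of called genes that were higher in nuclei moved from 45.1% to 89.7%, from 34.8% to 84.2% and from 30.4% to 90.0%, and with RLE factors it was 47.0% in fibroblast-like cells. Klf4 and Klf6 in urothelial-like cells and Klf2 in fibroblast-like cells stayed called lower under that scaling, at -1.48, -1.61 and -2.29. Immediate-early and stress genes were lower in nuclei for 26 of 29 tested in urothelial-like, 19 of 29 in fibroblast-like and 17 of 28 in macrophage-like cells, and none was higher. The 10 smooth muscle genes summed to 5179, 11393 and 10307 CPM in the urothelial-like, fibroblast-like and macrophage-like nuclei, against 48296 in smooth muscle-like nuclei. In the same classes of the whole-bladder libraries they summed to 10.2 to 163, 313 to 2544 and 24.9 to 143 CPM. The part of either in the members' differences was not tested.

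**Figure D4:**
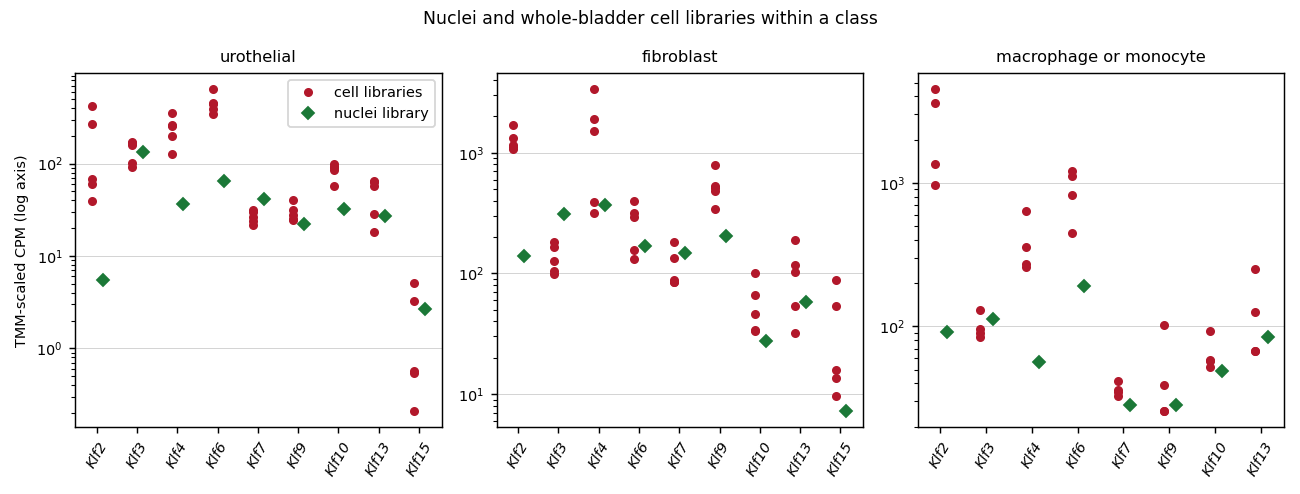
TMM CPM (log axes) of the members in the nuclei library (diamonds) and in each whole-bladder cell library (circles) within urothelial-like, fibroblast-like and macrophage- or monocyte-like cells. Klf2, Klf4 and Klf6 of the nuclei lie below every cell library in the urothelial and macrophage panels (65.4 against 341 to 638 for urothelial Klf6), and Klf3 of the nuclei lies above every one in the fibroblast panel, where 71.1% to 73.3% of all genes in the 3 classes do not overlap.

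In the 1369 smooth muscle-like nuclei, Klf9 stood at 132 CPM, Klf3 at 107, Klf2 at 43.3 and Klf4 at 40.4, with no cell library of that class among the whole-bladder libraries to compare. Klf4 was highest in fibroblast-like nuclei, at 622 CPM, and lowest in smooth muscle-like nuclei. Klf2 stood at 325 CPM in the 99 blood endothelial-like nuclei (27 UMIs) and at 286 in mesothelial-like nuclei (30 UMIs), and Klf7 at 301 in endothelial-like (25 UMIs) and 250 in fibroblast-like nuclei (103 UMIs). These UMIs are too few to order the classes.

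Age was compared within the 2 classes that all 5 whole-bladder libraries held, older (22 and 24 months) against younger (3, 12 and 12 months), with the sex mix of the pool in the fit. No gene passed in either class with edgeR (0% of 11738 genes higher and 0% lower in fibroblast-like cells, and 0% of 12633 either way in urothelial-like cells), so none of the 9 members did. Before adjustment 316 and 345 genes had a p under 0.05, and 8 and 0 were called by DESeq2. Klf10 had the lowest unadjusted p of the members in fibroblast-like cells. It had 28.7 and 30.3 TMM CPM in the older libraries 1 and 5 and 89.2, 40.4 and 60.3 in the younger libraries 2, 3 and 4. These do not overlap, nor do those of Klf9, where 7.48% of all genes in this class did not overlap. The log2 fold change was -1.14 ± 0.28 (adjusted p 1.00, edgeR), and over the alternatives the adjusted p ran from 0.00343 to 1.00. It was called lower without the filter on low counts (0.0561% of genes lower) and without library 5 (0.546% lower). Without library 5 the older arm is library 1 alone, which is assumed to vary like the other libraries, and with sex in the fit its age effect rests on library 1 against library 2. In urothelial-like cells Klf10 had 49.2 and 72.8 in the older and 78.9, 77.8 and 85.2 in the younger libraries (-0.37 ± 0.16, adjusted p 1.00, edgeR), without overlap, as for 8.41% of all genes. Fibroblast Klf9 stood at 294 and 425 in the older against 473, 443 and 726 in the younger libraries, a log2 fold change of -0.55 ± 0.24 that did not pass (adjusted p 1.00, edgeR). The other 7 members had log2 fold changes of -0.26 to 0.36 in fibroblast-like cells. Markers of other cells differed between the same libraries, with none called. In fibroblast-like cells the smooth muscle genes had a median log2 fold change of 1.98 (9 of 10 tested, 2544 and 1120 CPM summed in the older libraries against 313 to 479 in the younger) and the erythroid genes one of -4.37 (2 of 5 tested). In urothelial-like cells the fibroblast genes had a median of 1.18 (12 of 12 tested, 3118 and 273 CPM against 106 to 966). Their part in the members' values was not tested.

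The sections place the members in undissociated tissue. Clusters of spots were assigned to the smooth muscle, urothelial or fibroblast list, and a spot can hold several cells. Clusters of 223 of 1317, 507 of 1038, 278 of 937 and 281 of 1123 spots in sections 1 to 4 met the rule of no list. Some of these had the whole urothelial list raised by less than the rule asks, so the urothelial regions leave out part of the urothelium. The smooth muscle regions include clusters led by genes of other cells, 1 in section 1 by macrophage genes such as Ccl8 and Folr2 and 1 each in sections 1, 3 and 4 by mesothelial genes such as Msln, with the whole smooth muscle list raised in each. Klf9 and Klf15 showed the widest contrast, with no test. Klf9 had 26.8, 12.5, 32.0 and 31.3 CPM in the smooth muscle regions of sections 1 to 4 and 2.0, 0.90, 1.6 and 2.2 in the urothelial regions, a ratio of 13.7 to 19.6. Those urothelial values rest on 18, 4, 9 and 20 UMIs. Klf15 had 42.1, 29.4, 31.7 and 29.4 against 3.9, 5.1, 2.5 and 4.3 CPM, a ratio of 5.70 to 12.5. For both, every smooth muscle value lay above every urothelial one. Klf7 (2.12 to 2.97 times) and Klf13 (2.20 to 3.51 times) were also higher in smooth muscle regions in 4 of 4 sections without overlap. The share of all genes without overlap between these regions was not counted, so the members cannot be set against it.

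Klf10 and Klf3 had the opposite pattern. Klf10 had 53.1, 45.9, 92.5 and 102.6 CPM in the urothelial regions and 27.7, 17.8, 32.8 and 33.4 in the smooth muscle regions, so that muscle stood at 0.33 to 0.52 of the urothelium. Klf3 had 74.6, 76.1, 120.3 and 75.1 CPM in urothelial and 52.2, 51.4, 63.9 and 54.4 in smooth muscle regions. Klf6 was near level, at 0.84 to 1.25 times. The regions assigned to the fibroblast list were led by endothelial, plasma cell and macrophage genes such as Vwf, Plvap, Jchain and C1qc, and they are named here for the list only. Klf2 was highest there, at 165, 38.3, 386 and 86.5 CPM against 67.0, 25.1, 171 and 48.3 in smooth muscle and 22.9, 11.6, 43.7 and 18.7 in urothelial regions. That order held in 4 of 4 sections, and Klf4 had the same order, at 101, 36.4, 170 and 60.1 against 60.6, 25.3, 120.3 and 38.0 and 36.0, 16.1, 91.3 and 34.3 CPM. For both genes the sections ranked 3, 1, 4 and 2 from the highest in each of the 3 kinds of region.

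**Figure D5:**
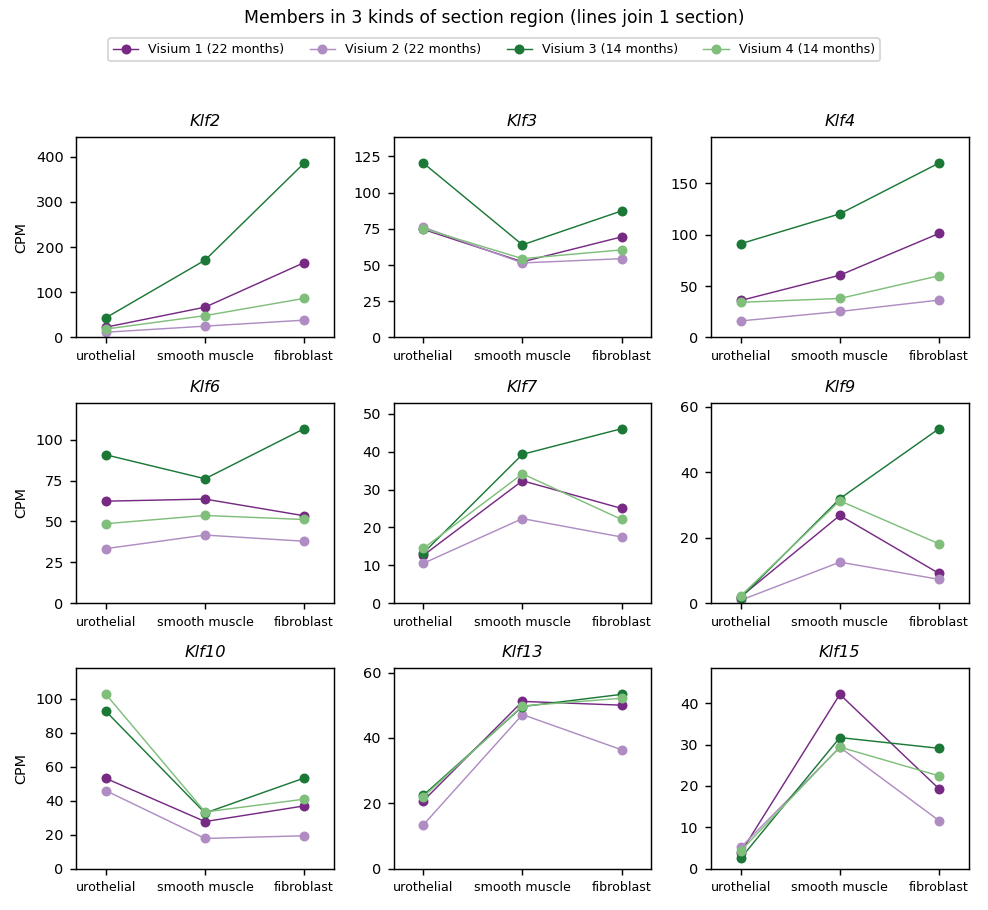
CPM (vertical axes, from 0) of the 9 factors in the regions of each section assigned to the urothelial, smooth muscle or fibroblast list, with 1 line per section and the age by colour. Klf9 (12.5 to 32.0 against 0.90 to 2.2) and Klf15 rise from urothelial to smooth muscle regions in all 4 sections, and Klf10 falls.

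Between sections of 22 and of 14 months no gene passed with edgeR (0% of 14995 higher and 0% lower), while 2488 had a p under 0.05 before adjustment and 426 were called by DESeq2. The labels do not say whether the 2 sections of an age came from separate mice, so p-values measure the spread between these sections. With 2 sections against 2, the values of 51.6% of all genes did not overlap, and those of 2 members, Klf10 and Klf9, did not. Klf10 had 45.5 and 34.7 TMM CPM at 22 months and 67.8 and 70.6 at 14 months, a log2 fold change of -0.78 ± 0.14 (adjusted p 0.116, edgeR). The adjusted p ran from 0.000761 to 0.365 over the alternatives, and Klf10 was called lower at 22 months with DESeq2 (1.55% of genes lower), without the filter on low counts (0.719%) and without section 1 (1% lower). Klf9 had 11.5 and 5.4 against 16.9 and 13.7 TMM CPM (-0.83 ± 0.38, adjusted p 0.368, edgeR), and was called without section 1 only (adjusted p 0.0294, range 0.0294 to 0.696). Without section 1 the 22-month arm is section 2 alone, so the spread comes from the 14-month sections. Klf2 and Klf4, at 59.4 and 24.1 against 128 and 39.9 and at 57.4 and 24.8 against 114 and 41.4, varied as much within an age as between ages. In the same sections the immediate-early and stress genes had a median log2 fold change of -1.57 (30 of 30 tested, means of 2792 CPM summed at 22 months and 6416 at 14 months), the glucocorticoid-responsive genes one of -1.11 (8 of 8 tested) and the plasma cell genes one of 4.47 (5 of 5 tested, 962 and 39.7 CPM), with none called. Their part in the members' differences was not tested.

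Genes with a like pattern over classes were ranked for each member over 24 sums of a class in a library, from the 5 whole-bladder libraries, by Pearson correlation of log2(CPM + 1) centred within library. The sums share libraries and depth, so these values carry no p. Among 8441 genes, those nearest to Klf9 were Tmem140 (0.95), Zbtb20 (0.94) and Slc12a4 (0.93), and those nearest to Klf15 were Ndn (0.95), Pkd2 (0.94) and Plat (0.94). Klf4 was nearest to Erf (0.93), the immediate-early gene Egr1 (0.91) and Timp3 (0.90), and Klf7 to Oaz2 (0.94), Atf7 (0.93) and Pxk (0.91). Klf2 was nearest to Entpd1 (0.92), Irf1 (0.92) and Isg15 (0.91), and Klf13 to Isg15 (0.92), Ssbp4 (0.90) and Arhgap31 (0.88). For Klf10 the nearest were Usp7 (0.88), the integrin gene Itga6 (0.87) and Lrp5 (0.85). Klf3, with Spin1 (0.87), Ranbp9 (0.81) and Zbtb38 (0.81), and Klf6, with H3f3b (0.82), Fkbp15 (0.75) and Sft2d1 (0.75), had the lowest correlations with their nearest genes.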

How the data were processed

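The deposited tables hold counts: reads per gene symbol for the bulk libraries, and UMIs per gene and barcode for cells, nuclei and spots. Per the submitters' processing notes, the tools were bcl2fastq, Cell Ranger, Space Ranger and featureCounts of Subread with the mm10 build, with no versions given. The strand setting of the bulk counting is not given in the sources used here, so reads of Klf3, Klf7, Klf9, Klf10 and Klf13 cannot be told apart from those of genes that overlap them. No per-sample column was left unmapped, and the columns of the bulk table were matched to samples by name.

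Barcodes of 500 or more UMIs, of which 20% or less were mitochondrial, were kept, and the highest-scoring 0.8% of barcodes per 1000 barcodes were removed as doublets predicted by simulation (7 to 660 per library). Each library was clustered (Leiden, resolution 1, 30 components of 2000 genes) without Kruppel-like and Sp genes, and clusters were named from marker lists (score at least 0.25 and at least 3 markers raised). A condition added after the clusters had been seen left a cluster unnamed where it had no marker of its class among its 10 leading genes and few markers raised. Rebuilt names may differ from those of the submitters. Regions of spots needed 75% of a list above the section level and a log2 difference of at least 0.5.

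Counts were summed per library and class (50 or more cells) and tested with edgeR 4.0.16 (quasi-likelihood, robust, TMM, filterByExpr, two-sided) in R 4.3.3, with Benjamini-Hochberg adjustment over all genes tested and a threshold of 0.05. SE was taken from the log2 fold change and the F statistic of the fit (size over square root of F). DESeq2 1.42.0, RLE factors, library size alone, no filter, other thresholds and left-out libraries were alternatives, and scripts were tested on simulated data. Nuclei and cell tables share 26344 genes. All 9 members were named in each comparison. From other lists up to 3 risers and 3 fallers past the threshold were named, and for likeness the 3 nearest genes with a symbol and a mean of at least 10 CPM. Fkbp5 is outside this rule and was chosen after its values were seen. Members and lists were chosen with earlier results of these data known.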

Additional observations from a re-analysis of the deposited data

Results flagged for a closer look

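In 7 of 81 groups of 4 or 5 libraries or sections, 1 value lay apart from the others by a gap test (Dixon's, 95% level), where chance gives about 1 in 20. In whole-bladder library 2, the 3-month males, Klf10 stood at 76.7 CPM in macrophage- or monocyte-like cells, against 44.2 to 48.4 in the 3 other libraries, and at 108.7 CPM in urothelial-like cells, against 62.8 to 70.6 in the 4 others. Klf9 stood at 83.7 CPM in the macrophage- or monocyte-like cells of the same library, against 21.3 to 31.1. In whole-bladder library 1 Klf13 stood at 51.8 CPM in dendritic-like cells, against 74.1 to 76.3. In section 2, Klf13 stood at 27.8 CPM over the whole section, against 36.4 to 37.4. In section 3, Klf3 stood at 90.0 CPM over the whole section, against 64.2 to 67.6, and at 120.3 CPM in the urothelial regions, against 74.6 to 76.1. These values are CPM without TMM scaling. In TMM CPM, urothelial-like Klf10 of whole-bladder libraries 2, 3 and 4 had a mean of 80.7 and an SD of 4.0, so library 2 did not stand apart there.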

How the results depend on the processing

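In bulk RNA the 8 higher and 1 lower members were called under every alternative except the minimum log2 fold change of 1, which left 1789 genes, 4 members higher and 0 lower. The labels do not say whether the bulk replicate numbers pair the samples. Correlations of same-numbered deviations were 0.28, 0.38 and -0.05, and those of differently numbered ones ran from -0.50 to 0.30, which cannot decide it. With the replicate block 10118 genes were called, again with 8 members higher and 1 lower. No paired analysis was possible for the sections because their groups share no number.

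For nuclei, in urothelial-like cells the mixed-sex libraries alone gave 7430 genes, 2 members higher and 5 lower (26% and 29.6% of all genes), the 12-month libraries 1 higher and 5 lower (24.7% and 28.5%), and library size alone 2 higher and 2 lower (37.4% and 4.3%), with Klf3 reversed to 1.20. In fibroblast-like cells the mixed-sex libraries gave 4756 genes and 3 members lower (24.4% of all genes), the 12-month libraries 2 lower (23.7%), and no member was higher (0) without the filter or with doublets kept. Leaving out 1 library gave 0 to 1 higher there. In macrophage-like cells no filter gave 1466 genes and library size alone 1315. DESeq2 and no filter each called 3 members lower (8.25% and 7.18% of all genes), the mixed-sex libraries 2 (7.52%). Leaving out 1 library gave 0 to 1090 genes (0 without library 2 or 5, 10 without library 1) and 0 to 1 members lower. Macrophage-like nuclei of at least 1000 UMIs were too few, and the 12-month libraries held 1 such cell class, so these alternatives were not run.

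By age, genes called in fibroblast-like cells were 8 with DESeq2, 26 without the filter (1 member, Klf10, lower), 2 with library size alone and 0 to 125 leaving out 1 library (125 without library 5, with 1 member lower, 0 to 1). In urothelial-like cells they were 68 without the filter and 1 to 68 leaving out 1 library (68 without library 3). Between sections they were 426 with DESeq2 (1 member lower), 287 without the filter (1 lower), 38 with library size alone and 0 to 300 leaving out 1 section (300 without section 1), with 0 to 2 members lower. With classes of 20 or more cells, endothelial-like Klf2 was 6191 CPM and Klf13 204. The cause of these shifts was not tested. Of 62 fold changes of single members, 12 became called and 7 lost their call under at least 1 alternative (27 and 12 of 672 alternative fits). The depth of the nuclei library and its single replicate limit what its comparisons can show.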
